A study of Rattus norvegicus with 6 samples.

Results

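The 8 genes described here serve the synthesis and the intestinal handling of cholesterol. They were taken by name from a list of SREBP2 targets and intestinal sterol carriers that was proposed with earlier results of these data known. All 8 were found among the 28282 gene symbols of the count tables. Single-nucleus RNA sequencing of the ileum was done in 6 wild-type male Sprague-Dawley rats aged 6 weeks, with 1 library per rat and all libraries in batch 1. In the 3 SAP rats, severe acute pancreatitis was induced by pumping 3% sodium taurocholate, a bile salt, against the flow into the pancreatic duct (0.1 mL per 100 g of body weight) and clamping the duct. The 3 CON rats had a sham laparotomy without infusion, and both groups were sampled at 24 h after surgery without food but with water. The bile salt, the duct infusion and the clamping came together with the pancreatitis, so their parts cannot be told apart in this design.

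Cells make cholesterol from acetyl-CoA. SREBP2, the product of Srebf2, is held in the endoplasmic reticulum by INSIG proteins while sterols are plentiful and is released to switch on synthesis genes when sterols run short. Hmgcs1 encodes the cytosolic HMG-CoA synthase, an early step of the pathway, and Sqle encodes squalene epoxidase, a later rate-controlling step. Insig1 is both a brake on SREBP2 and one of its targets. In the small intestine, NPC1L1 takes sterols up from the lumen, ABCG5 and ABCG8 together pump them back, and SOAT2 turns cholesterol into esters for packing into lipoproteins. Abcg5 and Abcg8 are known targets of the liver X receptors, which sense oxidised sterols.

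The bases in front of the gene starts are shown because SREBP2 and the factors NF-Y and Sp1, which are known to act with it, bind short sequences there. Windows from 250 bases before to 50 bases after the start were read from RefSeq on build GRCr8, and 6 of the 8 genes had one (Sqle and Soat2 had none). Both strands were searched for the CCAAT box (CCAAT), the GC box (GGGCGG) and the core of the sterol response element (TCAC, any base, then CCAC). Matches are in capitals below, as CCAAT or its reverse ATTGG, and as GGGCGG or its reverse CCGCCC. The 250 bases before the starts of Hmgcs1 (chr2:53382054-53382303, plus strand), Insig1 (chr4:8057770-8058019, minus strand) and Srebf2 (chr7:115543057-115543306, plus strand) read as follows.
Hmgcs1: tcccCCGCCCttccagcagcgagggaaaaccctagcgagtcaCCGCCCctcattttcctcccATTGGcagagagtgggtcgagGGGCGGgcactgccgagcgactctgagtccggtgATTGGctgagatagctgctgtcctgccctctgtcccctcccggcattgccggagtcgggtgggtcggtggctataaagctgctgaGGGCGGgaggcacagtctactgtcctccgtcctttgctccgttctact
Insig1: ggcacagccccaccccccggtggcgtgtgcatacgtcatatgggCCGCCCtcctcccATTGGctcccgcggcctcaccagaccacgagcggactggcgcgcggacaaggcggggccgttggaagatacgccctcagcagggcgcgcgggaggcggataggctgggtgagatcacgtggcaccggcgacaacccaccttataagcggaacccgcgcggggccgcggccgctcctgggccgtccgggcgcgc
Srebf2: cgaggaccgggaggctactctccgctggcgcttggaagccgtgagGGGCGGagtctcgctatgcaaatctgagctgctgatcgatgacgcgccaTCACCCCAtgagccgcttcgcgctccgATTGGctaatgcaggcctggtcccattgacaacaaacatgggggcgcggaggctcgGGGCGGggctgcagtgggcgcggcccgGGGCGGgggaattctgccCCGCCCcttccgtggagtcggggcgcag

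The Hmgcs1 window held 2 CCAAT boxes and 4 GC boxes, that of Insig1 held 1 of each, and that of Srebf2 held 1 CCAAT box and 5 GC boxes, the last of them after the start. The full core of the sterol response element was in none of the 6 windows and in 1.12% of the 33469 rat windows in the table. Its first 8 letters, a search added after the windows had been seen, matched once among the members, in Srebf2 at -156 (the base before the start being -1), and in 3.89% of all windows. A CCAAT box was present in 37.5% and a GC box in 33.1% of all windows. No match overlapped a match of another motif. These letters describe the sequence and were not tested for binding.

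Abcg5 and Abcg8 lie head to head on chromosome 6 with 205 bases between their starts, so that their windows share 295 bases. The bases between the starts are shown (chr6:15717731-15717935, plus strand, Abcg8 leaving to the left and Abcg5 to the right) because the levels of the pair are set side by side below.
Abcg8 and Abcg5: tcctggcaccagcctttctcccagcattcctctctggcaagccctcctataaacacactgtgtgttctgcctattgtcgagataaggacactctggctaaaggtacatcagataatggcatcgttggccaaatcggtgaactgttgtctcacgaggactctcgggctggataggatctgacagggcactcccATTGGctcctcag

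The pair shared 1 CCAAT box and had no GC box. The Npc1l1 window held 3 CCAAT boxes and no GC box.

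After the limits on quality, 40970 of 90461 barcodes remained, leaving each library with between 3189 and 9246 nuclei and between 5549260 and 28771508 UMIs (unique molecular identifiers, which mark single captured transcripts). CON 2 and SAP 1 stood apart because their tables list barcodes under 1000 UMIs, and 26.2% and 12.2% of all their listed barcodes passed, against 76.4% to 79.9% elsewhere. The median share of mitochondrial UMIs was 0.700%, 0.125% and 0.218% in CON 1, 2 and 3 and 1.84%, 1.29% and 0.387% in SAP 1, 2 and 3. Clustering gave 24 clusters, of which 17 classes or clusters had at least 10 nuclei in every library and were fitted. The 30936 epithelial nuclei held 8999 stem/TA-like (stem and transit-amplifying), 4620 goblet-like and 4580 enterocyte-like nuclei, and cluster 1 (4545 nuclei) and cluster 2 (3624 nuclei) kept their numbers because no marker list named them. They were counted as epithelial because the named clusters closest to them were tuft-like and enterocyte-like. The share of enterocyte-like nuclei among all nuclei of a library was 7.26%, 6.69% and 8.58% in CON 1, 2 and 3. It was 17.7%, 25.4% and 8.74% in SAP 1, 2 and 3, with SAP 3 close to CON 3. The mix of classes thus differed between libraries, and no test of these shares between the groups was run. A level summed over classes cannot tell more nuclei of one type from more RNA per nucleus.

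Among classes, Insig1 was concentrated in enterocyte-like nuclei. Its level there was 392 ± 203 CPM (counts-per-million, the UMIs of a gene scaled to the UMI total of the class in that library; SD, n = 6 libraries), above the next class, goblet-like nuclei at 113 ± 44.5 CPM, in 6 of 6 libraries. Within the class, cluster 7, led by Apoa4 (an apolipoprotein) and Ada (adenosine deaminase), held 697 ± 286 CPM. Cluster 7 had the highest mean log2 level of the listed villus-tip markers (9.69), which include Ada. It was also highest for the mid-villus markers (9.32), which include Apoa4. Cluster 6, led by the amino acid transporter Slc6a19, held 172 ± 91.8 CPM, and cluster 15, led by the ileal bile acid carrier genes Fabp6 and Slc51b, held 163 ± 86.5 CPM. Cluster 7 lay above cluster 6 in 6 of 6 libraries, whereas cluster 6 lay above cluster 15 in 4 of 6. From goblet-like nuclei downward the order of Insig1 was not separated, since no class lay above the next in more than 5 of 6 libraries.

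**Figure D1:**
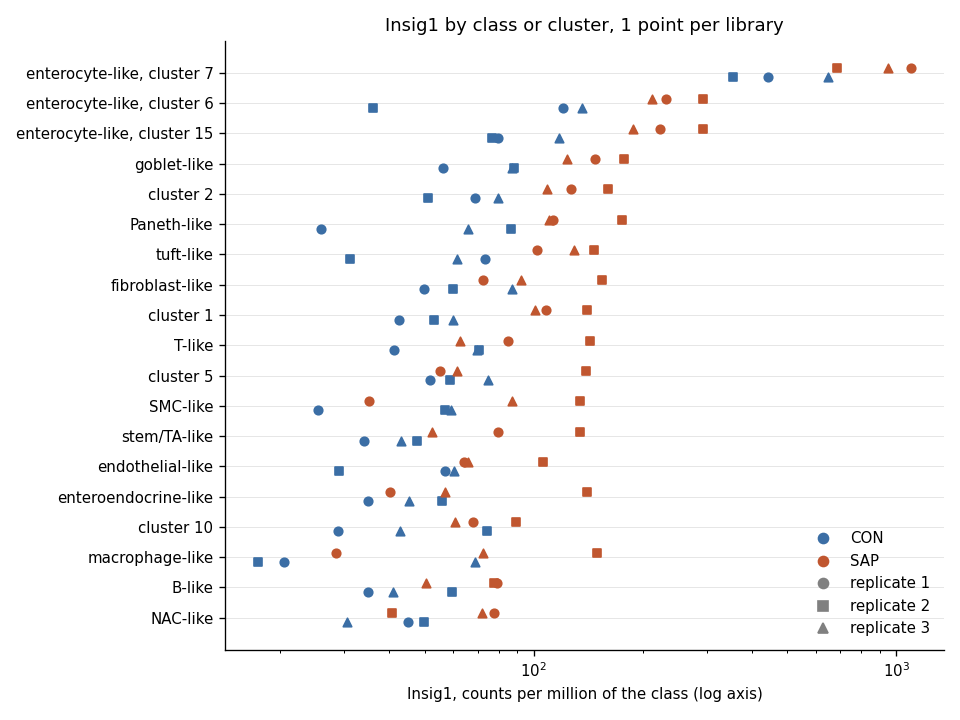
Insig1 level in CPM (log axis) in each class or cluster, 1 point per library, with colours for CON and SAP and marker shapes for the replicate number. Cluster 7 of the enterocyte-like class, at 354 to 1098.5 CPM, lies to the right of every other class.

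The share of nuclei with an Insig1 UMI, after each nucleus was thinned to 1200 UMIs, was also highest in the enterocyte-like clusters, and below goblet-like nuclei its order differed from that of the CPM. It was 49.7% in cluster 7, 17.8% in cluster 6, 16.4% in cluster 15, 12.1% in goblet-like nuclei and 30.2% in all enterocyte-like nuclei (42.1% before thinning, median 1884 UMIs). In T-like nuclei, which do not absorb sterols, it was 7.96% (14.3% before thinning, median 1784 UMIs), and in stem/TA-like nuclei it was 7.62%. Stem/TA-like and T-like nuclei were thus close in this share. How much of it in either class is free RNA in the droplets was not tested.

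The order of classes for the sterol carriers differed from that of Insig1. By class, Npc1l1 was highest in enterocyte-like nuclei, at 127 ± 39.6 CPM, but above cluster 2 (122 ± 26.8 CPM) in only 3 of 6 libraries. The enterocyte-like clusters were also taken apart, an ordering added after the data had been seen. There Npc1l1 was highest in cluster 15, the bile acid carrier cluster, at 182 ± 51.4 CPM and above cluster 2 in 6 of 6 libraries. Abcg5 was highest in cluster 2, whose leading genes include sucrase-isomaltase (Si), at 60.1 ± 18.1 CPM against 36.8 ± 5.37 CPM in enterocyte-like nuclei, and it was higher there in 6 of 6 libraries. Its partner Abcg8 was likewise highest in cluster 2, at 27.7 ± 9.22 CPM against 15.7 ± 7.75 CPM in cluster 1, again in 6 of 6. Soat2 averaged 291 ± 83.1 CPM in cluster 2 and 240 ± 64.7 CPM in enterocyte-like nuclei, with cluster 2 above in 5 of 6 libraries, so these neighbours were not separated. With the enterocyte-like clusters taken apart, cluster 2 lay above cluster 6 in 5 of 6 libraries for Abcg5 and in 4 of 6 for Abcg8. These clusters were thus not separated for the exporters.

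The synthesis genes and Srebf2 were spread more evenly than Insig1, Abcg5 and Abcg8. Hmgcs1 ranged from 107 ± 22.1 CPM in cluster 10 to 259 ± 42.3 CPM in cluster 2, and goblet-like nuclei, at 258 ± 76.8 CPM, could not be separated from cluster 2. Srebf2 ran from 259 ± 140 CPM in endothelial-like nuclei to 456 ± 90.4 CPM in cluster 2. The highest mean of Sqle was in NAC-like nuclei (neuron-associated cells), at 122 ± 80.5 CPM, and it lay above enterocyte-like nuclei in only 2 of 6 libraries. Its lowest mean was 39.7 ± 5.50 CPM in cluster 10, a range much like that of Npc1l1 (42.5 to 127 CPM by class). With the enterocyte-like clusters taken apart, Sqle was highest in cluster 15, at 161 ± 84.9 CPM and above cluster 6 in 5 of 6 libraries. In that ordering Hmgcs1 (264 ± 37.1 CPM) and Srebf2 (479 ± 140 CPM) were highest in cluster 6, above cluster 2 in 4 and 3 of 6 libraries.

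Every member was also counted in nuclei outside the epithelium. As a percentage of the enterocyte-like level in the same library, the non-epithelial level averaged 22.5% for Insig1, with a range of 9.18% to 38.8%. For the carriers it averaged 55.5% (Npc1l1), 53.5% (Abcg5), 64.3% (Abcg8) and 57.6% (Soat2), and it reached 118.5% for Abcg5 and 154.9% for Abcg8 in SAP 2. For the synthesis genes it averaged 72.4% (Hmgcs1) and 64.4% (Sqle), and for Srebf2 88.8%. How much of these counts is free RNA in the droplets was not tested. Insig1 thus had the lowest non-epithelial level relative to enterocyte-like nuclei among the 8 genes.

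Over all epithelial nuclei, the mean of every member was higher in SAP than in CON, and none passed the threshold. The largest differences were those of Insig1 (2.97-fold), Abcg8 (2.31-fold) and Abcg5 (2.30-fold), and the smallest was that of Srebf2 (1.21-fold). A gene was called at an adjusted p under 0.05 with a log2 fold change of at least 0.5 in size. By edgeR's quasi-likelihood test 0 of 8 members were called, against 0% of the 16822 genes tested. With an unadjusted p under 0.05, 5 of 8 were higher in SAP, against 5.3% of all genes. All 8 log2 fold changes were above 0, with a median of 0.78, against 49.8% and a median of -0.00 over all genes. Since the members were chosen with earlier results of these data known, such shares, here and below, are not independent evidence for the set. DESeq2 called 1 member, Insig1 (log2 fold change 1.57, adjusted p = 0.00241), against 1.89% of the genes it tested.

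Insig1 stood at 69.7, 60.4 and 91.8 CPM in CON 1, 2 and 3 and at 253, 261 and 146 CPM in SAP 1, 2 and 3, now scaled by the TMM factors of the fit. The lowest SAP library lay above the highest CON library. The log2 fold change was 1.57 ± 0.29 (SE; edgeR's quasi-likelihood test, unadjusted p = 0.000727, adjusted p = 0.397). Over the 16 alternatives of this fit it stayed between 1.34 and 1.79, with adjusted p from 0.00241 to 0.936.

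Npc1l1, the sterol importer, gave 80.9, 60.8 and 83.2 CPM in CON and 130, 136 and 103 CPM in SAP, again without overlap. Its log2 fold change was 0.72 ± 0.21 (edgeR's quasi-likelihood test, unadjusted p = 0.0105, adjusted p = 0.403). Hmgcs1 was the third member whose groups did not overlap. Its values were 135, 142 and 169 CPM in CON and 202, 299 and 189 CPM in SAP (0.63 ± 0.24 on the log2 scale; edgeR, unadjusted p = 0.0304, adjusted p = 0.416). In all, 3 of 8 members lay wholly higher in SAP, against 6.85% of all genes.

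The exporters overlapped between the groups because SAP 3 lay with the CON libraries. Abcg5 stood at 11.6, 12.2 and 20.1 CPM in CON and at 37.4, 48.0 and 16.3 CPM in SAP (log2 fold change 1.20 ± 0.44; edgeR, unadjusted p = 0.0256, adjusted p = 0.411). Abcg8 stood at 6.00, 4.60 and 9.79 CPM in CON and at 17.4, 21.6 and 8.44 CPM in SAP (log2 fold change 1.21 ± 0.45; edgeR, unadjusted p = 0.0290, adjusted p = 0.415). SAP 1 and SAP 2 were above every CON library for both genes, and SAP 3 was not.

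The other 3 members overlapped as well. Soat2 was tight in CON, at 140, 140 and 144 CPM, and wide in SAP, at 244, 388 and 125 CPM (log2 fold change 0.84 ± 0.38; edgeR, unadjusted p = 0.0584). Sqle stood at 101, 61.4 and 60.5 CPM in CON and at 123, 133 and 78.5 CPM in SAP (0.58 ± 0.30 on the log2 scale; edgeR, unadjusted p = 0.0879). Srebf2 was at 339, 344 and 373 CPM in CON and at 362, 573 and 342 CPM in SAP, where SAP 2 alone lay above all CON libraries (0.28 ± 0.25 on the log2 scale; edgeR, unadjusted p = 0.305).

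**Figure D2:**
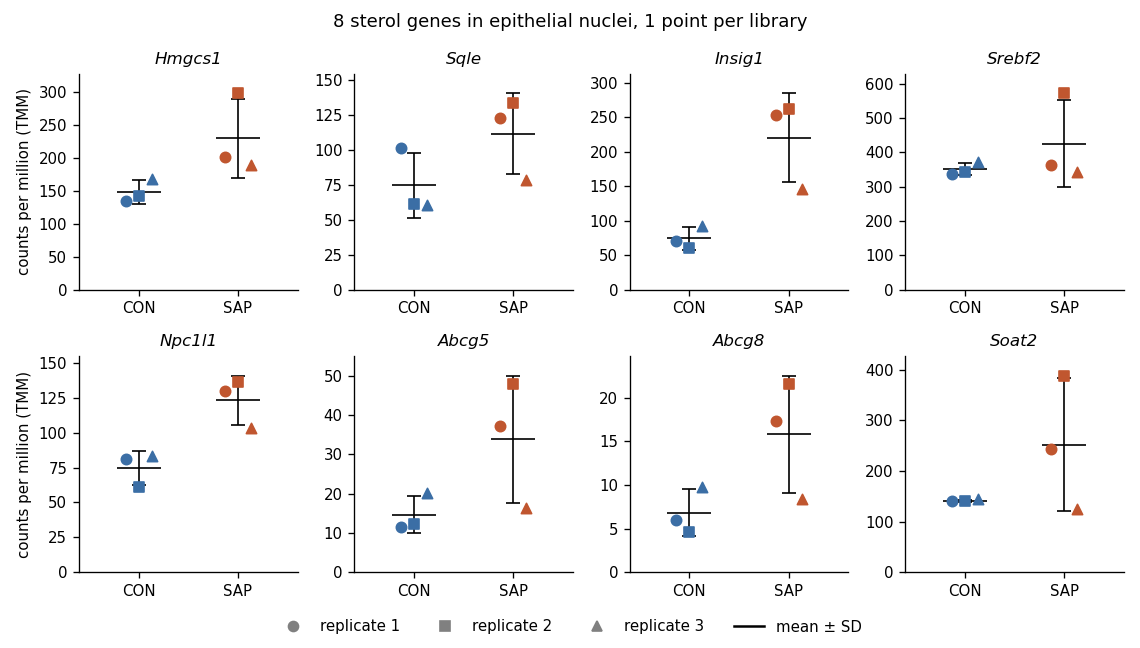
Level of each of the 8 genes in epithelial nuclei in CPM with TMM scaling, 1 point per library, with the mean and SD of the 3 CON and 3 SAP rats as bars. Insig1, Npc1l1 and Hmgcs1 are the 3 genes whose groups do not overlap.

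SAP 2 was the highest SAP library for all 8 members in epithelial nuclei. With SAP 2 left out, all 8 log2 fold changes remained above 0 (50.2% of all genes) and 2 members kept an unadjusted p under 0.05, against 3.21% of all genes. The 5 members became 3 without CON 1 (5.66% of all genes), 1 without CON 2 (2.37%), 3 without SAP 1 (4.22%) and 7 without SAP 3 (7.53%), and were 5 without CON 3 (9.64%). With the replicate number as a block they were 4 (6.3% of all genes), since Abcg5 (edgeR, unadjusted p = 0.0615) and Abcg8 (0.0617) were no longer under 0.05 and Sqle was (0.0467). Enterocyte and stem cell markers moved with these results in opposite directions. Their summed level in epithelial nuclei was 1660, 797 and 3254 CPM in CON and 3823, 4754 and 3833 CPM in SAP without overlap, and 12 of the 13 listed markers in the tables had a higher mean in SAP. The summed level of the 9 stem cell markers was 2183 to 2393 CPM in CON and 1023 to 1965 CPM in SAP, also without overlap, and 1 of the 9 had a higher mean in SAP. The part of these marker shifts and of the mitochondrial share in the members' differences was not tested by these fits.

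Which members stood apart depended on the TMM factors. Without them Sqle did not overlap (at most 75.2 CPM in CON and at least 96.6 CPM in SAP), whereas Hmgcs1 did (200.9 CPM in CON 3 and 178 CPM in SAP 1), and Insig1 and Npc1l1 did not overlap on either scale. To hold the mix of classes equal, each class was weighted by its mean share of epithelial UMIs over the 6 libraries, on CPM without the TMM factors. The log2 ratio of the group means of Insig1 then went from 1.50 to 1.15, with 64.7, 77.0 and 117 CPM in CON against 196, 204 and 175 CPM in SAP. The groups of Insig1, Npc1l1 (0.71 before, 0.56 after) and Sqle (0.61 before, 0.43 after) did not overlap before or after. Abcg5 went from 1.08 to 0.72, Abcg8 from 1.11 to 0.80, Soat2 from 0.76 to 0.59, Hmgcs1 from 0.59 to 0.44 and Srebf2 from 0.25 to 0.16. All 8 ratios were smaller at the fixed mix and all 8 remained above 0. With clusters in place of classes the Insig1 ratio was 1.02.

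**Figure D3:**
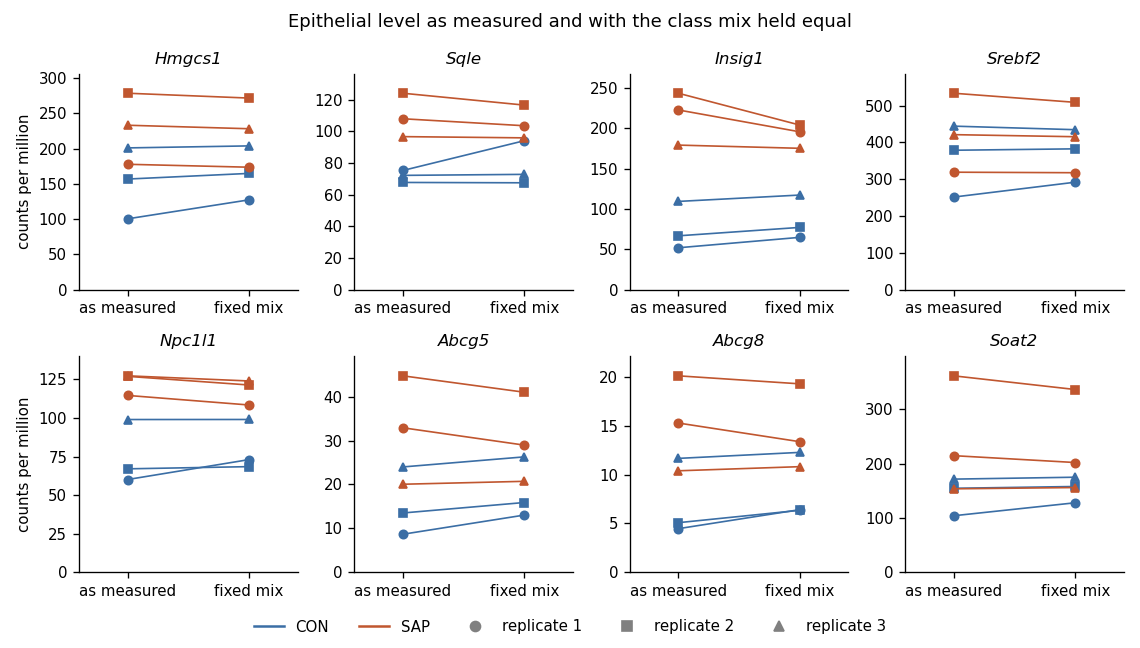
Epithelial level of each gene in CPM as measured and with the class mix held equal, 1 line per library, coloured by group. The Insig1 lines of the 3 SAP libraries, at 175 to 204 CPM in the fixed mix, stay above those of the 3 CON libraries, at 64.7 to 117 CPM.

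Over all nuclei the picture was similar, with 8 of 8 members above 0 (52.2% of all genes) and 0 called by edgeR (0% of 19187 genes). An unadjusted p under 0.05 was reached by 4 members (3.97% of all genes), namely Insig1, Npc1l1, Abcg5 and Abcg8, and 3 did not overlap (4.9% of all genes). Insig1 had a log2 fold change of 1.47 ± 0.35 (edgeR's quasi-likelihood test, unadjusted p = 0.00292, adjusted p = 0.545). DESeq2 called Insig1 here too (adjusted p = 0.0361), against 1.08% of its genes. With the replicate number as a block, 2 members kept an unadjusted p under 0.05, against 5.99% of all genes. In this blocked fit Insig1 was at 1.38 (edgeR, unadjusted p = 0.00724, adjusted p = 0.379) and Npc1l1 at 0.66 (edgeR, unadjusted p = 0.0370, adjusted p = 0.390). The 4 became 1 without CON 1 (3.98% of all genes), CON 2 (1.74%), SAP 1 (2.79%) or SAP 2 (2.32%), 3 without CON 3 (7.69%) and 7 without SAP 3 (7.54%).

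In enterocyte-like nuclei alone, Insig1 was the member whose groups stood apart. It was at 214, 116 and 355 CPM in CON and at 722, 468 and 554 CPM in SAP. The log2 fold change was 1.34 ± 0.42 (edgeR's quasi-likelihood test, unadjusted p = 0.0109, adjusted p = 0.734). No gene was called (0% of 11079), and DESeq2 called no member (0.13% of its genes). The other 7 members had an unadjusted p of 0.129 or more, so 1 of 8 was under 0.05 (3.06% of all genes) and 1 of 8 did not overlap (5.96% of all genes). Log2 fold changes were above 0 in 6 of 8 members (49% of all genes). Srebf2 was at 0.51 ± 0.31, Npc1l1 at 0.54 ± 0.42 and Soat2 at 0.36 ± 0.36. The exporters did not share the direction seen over the epithelium, with Abcg5 at -0.16 ± 0.33 and Abcg8 at -0.12 ± 0.38. Their sign was not stable, since at a Leiden resolution of 0.4 Abcg5 was at 0.46 and Abcg8 at 0.48, and Abcg8 was above 0 in 3 of 16 alternatives. Abcg5 stood at 48.3, 26.4 and 44.2 CPM in CON and at 39.5, 37.0 and 31.3 CPM in SAP. With CON 1 left out, 2 members had an unadjusted p under 0.05 (3.07% of all genes).

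The 3 enterocyte-like clusters were also fitted apart, an alternative added after the data had been seen. Cluster 7, with the highest Insig1 level, gave 663.7 CPM in its highest CON library and 711 CPM in its lowest SAP library (log2 fold change 1.08; edgeR, unadjusted p = 0.0207, adjusted p = 0.590). Cluster 6 gave 1.20 without overlap (edgeR, unadjusted p = 0.0318, adjusted p = 0.474), and without the filter on low counts edgeR called Insig1 there (adjusted p = 0.0308, against 0.818% of genes). Cluster 15 gave 1.12 (edgeR, unadjusted p = 0.0404, adjusted p = 0.999), and there the groups overlapped, with CON 1 at 177 CPM and SAP 3 at 173 CPM. Over the alternatives the log2 fold change of Insig1 was as low as 0.66 in cluster 7 (under the 1% mitochondrial limit), 0.78 in cluster 6 and 0.87 in cluster 15 (both without CON 2). Libraries differed in villus-tip markers within the class, whose sum was 665 CPM in CON 1 and 2147 to 3175 CPM in the other libraries. The part of that difference in the Insig1 values was not tested.

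In stem/TA-like nuclei, 2 of 8 members had an unadjusted p under 0.05 (4.68% of all genes) and 0 were called (0.0078% of 12824 genes), nor was any called by DESeq2 (0.783% of its genes). All 8 log2 fold changes were above 0 (51.5% of all genes). Npc1l1 was at 59.4, 62.4 and 71.0 CPM in CON and at 110, 128 and 86.7 CPM in SAP (log2 fold change 0.75 ± 0.22; edgeR's quasi-likelihood test, unadjusted p = 0.00919, adjusted p = 0.566). Insig1 stood at 37.2, 46.0 and 40.5 CPM in CON and at 86.8, 145 and 47.6 CPM in SAP (log2 fold change 1.16 ± 0.38; edgeR, unadjusted p = 0.0160, adjusted p = 0.566). Neither gene overlapped between the groups, against 6.24% of all genes. When the nuclei were clustered without integration, which left 188, 48 and 1335 nuclei of SAP 1, 2 and 3 in this class, Insig1 was at 0.29 (edgeR, unadjusted p = 0.354) and no member had an unadjusted p under 0.05 (2.29% of all genes). The large differences of Abcg5 (1.59 ± 0.84) and Abcg8 (1.96 ± 0.89) rested on SAP 2, at 34.4 and 21.5 CPM, against 4.03 to 11.8 and 3.23 to 5.36 CPM in the other SAP libraries. Without SAP 2 they were 0.48 and 0.76, and without integration 0.13 and 0.08. The 2 members became 1 without SAP 2 (3.16% of all genes) and 7 without SAP 3 (7.59%). The enterocyte marker sum within this class was 411 to 1263 CPM in CON and 1180 to 2230 CPM in SAP, with SAP 2 highest, and its part in these values was not tested.

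Cluster 1, led by Hnmt (histamine N-methyltransferase) and Pla2g4c (a phospholipase), had the most members with an unadjusted p under 0.05 among the fitted classes. It is unnamed and was counted as epithelial only through its closest named cluster, which was tuft-like. No marker list was raised in it (highest mean log2 ratio -0.185), and its median of 1546 UMIs per nucleus was the lowest of all clusters. By edgeR 0 of 8 were called (0.00925% of 10805 genes), 6 of 8 had an unadjusted p under 0.05 (7.32% of all genes), 5 of 8 did not overlap (8.81% of all genes), and 8 of 8 were above 0 (51.7% of all genes). Insig1 stood at 46.6, 49.3 and 56.4 CPM in CON and at 122, 157 and 93.7 CPM in SAP (log2 fold change 1.29 ± 0.25; edgeR, unadjusted p = 0.000643, adjusted p = 0.224). Abcg5 stood at 10.4, 9.16 and 20.6 CPM in CON and at 65.8, 71.5 and 25.05 CPM in SAP (1.98 ± 0.48 on the log2 scale; edgeR, unadjusted p = 0.00287, adjusted p = 0.237). Sqle (0.84), Npc1l1 (0.75) and Hmgcs1 (0.62) were the other members without overlap. DESeq2 called Insig1 (adjusted p = 0.0149) and Abcg5 (adjusted p = 0.0188), against 2.05% of its genes. Without the filter on low counts edgeR called the same pair (Insig1 adjusted p = 0.00116, Abcg5 adjusted p = 8.27e-05), against 2.75% of genes. Without SAP 2, 4 members kept an unadjusted p under 0.05 (3.9% of all genes). The enterocyte marker sum in this cluster was 626 to 1888 CPM in CON and 1964 to 2985 CPM in SAP, and its part in these values was not tested.

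Across the 17 classes and clusters, Insig1 could be tested in 15 and was higher in SAP in 15, by 0.53 (endothelial-like) to 1.38 (macrophage-like) on the log2 scale. Without SAP 2 it was higher in 15 of 16, with a lowest value of -0.10 in cluster 5. Its unadjusted p was under 0.05 in 9 of the 15, and in 6 of 16 without SAP 2. In goblet-like nuclei it stood at 60.9, 84.6 and 82.2 CPM in CON and at 164, 191 and 113 CPM in SAP (1.03 ± 0.26 on the log2 scale; edgeR, unadjusted p = 0.00323, adjusted p = 0.560). In tuft-like nuclei the log2 fold change was 1.26 ± 0.34 (edgeR, unadjusted p = 0.00303, adjusted p = 0.266). Without the filter on low counts edgeR called Insig1 in goblet-like nuclei (adjusted p = 0.0349, against 1.23% of genes) and in cluster 2 (adjusted p = 0.0200, against 1.47% of genes). Hmgcs1 was higher in 17 of 17 classes tested, and without SAP 2 in 16 of 17, with an unadjusted p under 0.05 in 0. Npc1l1 was higher in 15 of 15, but in 12 of 15 without SAP 2, with a lowest value of -0.22 in cluster 10. Soat2 was higher in 16 of 16, but in 10 of 16 without SAP 2. Srebf2 was higher in 13 of 17, and in 5 of 17 without SAP 2. The classes of one rat share a library, so these counts are not independent. By edgeR, 3.06% (enterocyte-like), 4.68% (stem/TA-like) and 7.32% (cluster 1) of all genes were higher with an unadjusted p under 0.05. The enterocyte marker sum within goblet-like nuclei was 448 to 1681 CPM in CON and 1371 to 2812 CPM in SAP. In non-epithelial nuclei that sum was 601 to 2185 CPM in CON and 1631 to 2885 CPM in SAP. Its part in the Insig1 values was not tested.

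**Figure D4:**
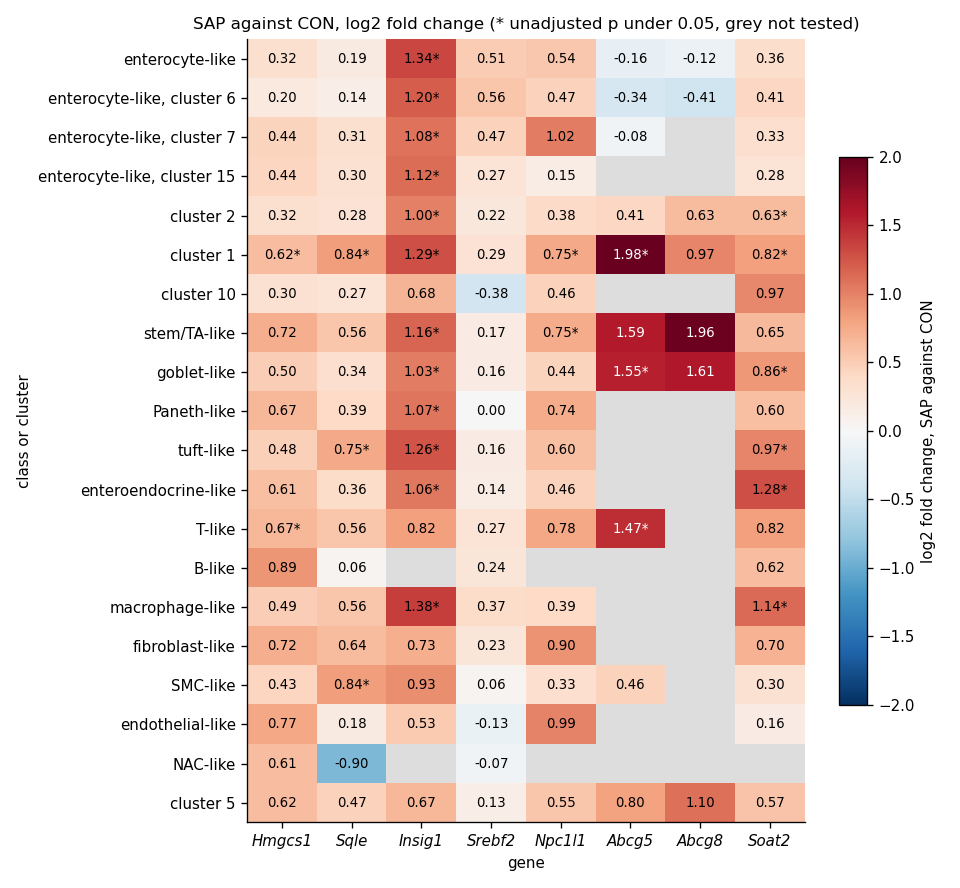
Log2 fold change of SAP against CON for each gene (columns) in each class or cluster (rows), with an asterisk for an unadjusted p under 0.05 and grey where the gene was not tested. The Insig1 column is above 0 in all 15 classes tested, whereas Abcg5 and Abcg8 are below 0 in enterocyte-like nuclei.

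Whether the SAP effect differed between enterocyte-like and stem/TA-like nuclei was tested within rats. No member was called by edgeR (0% of 13164 genes). DESeq2 called none either, but its share over all genes is not given here, so that count says little. The exporters had the largest differences of effect, with Abcg8 at -1.99 ± 0.77 (edgeR's quasi-likelihood test, unadjusted p = 0.0247, adjusted p = 0.945) and Abcg5 at -1.62 ± 0.82 (edgeR, unadjusted p = 0.0763). Abcg8 was the 1 of 8 members with an unadjusted p under 0.05, against 3.11% of all genes with such a p and a lower effect in enterocyte-like nuclei. Both exporters were rare in stem/TA-like nuclei. On average over libraries, 0.311% (CON) and 1.24% (SAP) of these nuclei held an Abcg8 UMI after thinning. For Abcg5 it was 0.614% and 2.15%. Without SAP 2 the differences were -0.95 for Abcg8 (edgeR, unadjusted p = 0.238) and -0.66 for Abcg5, and without CON 1 Abcg8 was at -1.34 (edgeR, unadjusted p = 0.109). Without integration the differences were only -0.32 for Abcg8 (edgeR, unadjusted p = 0.608) and -0.21 for Abcg5 (edgeR, unadjusted p = 0.761), and at a resolution of 0.4 Abcg8 was at -1.21 (edgeR, unadjusted p = 0.0931). Insig1 gave 0.41 ± 0.55 (edgeR, unadjusted p = 0.476). Without integration Insig1 was at 1.65 (edgeR, unadjusted p = 0.00258, adjusted p = 0.207), and it and Srebf2 (0.59) were the 2 members with an unadjusted p under 0.05 and a larger effect in enterocyte-like nuclei, against 5.06% of all genes. Between epithelial and non-epithelial nuclei, a comparison added after the data had been seen, the SAP effect on Insig1 was larger in the epithelium by 0.86 ± 0.23 (edgeR, unadjusted p = 0.00246, adjusted p = 0.723). It was the 1 of 8 members with an unadjusted p under 0.05 and a larger effect, against 3.41% of all genes, and it was not called (0.00534% of genes), except without the filter on low counts (adjusted p = 0.000724, against 1.17% of genes). The other 7 members differed there by -0.18 to 0.27. Both sides of that comparison sum over classes, and the part of the class mix in these differences was not tested. Fitted class by class, Insig1 had its highest and lowest log2 fold changes outside the epithelium (1.38 in macrophage-like and 0.53 in endothelial-like nuclei). Set against non-epithelial nuclei in the same way, enterocyte-like nuclei had a lower effect on Abcg8 (-1.40 ± 0.58; edgeR, unadjusted p = 0.0308, adjusted p = 1.00) and Abcg5 (-1.09 ± 0.47; edgeR, unadjusted p = 0.0388, adjusted p = 1.00), the 2 of 8 members with an unadjusted p under 0.05, against 1.68% of all genes. Without SAP 2 these were -0.77 for Abcg8 and -0.60 for Abcg5, and without CON 1 they were -0.80 and -0.63.

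The rest of the pathway was counted from 5 gene lists, in epithelial nuclei, and Insig1, called by DESeq2, was the only list gene called by either tool. The lists, like the members, were chosen with earlier results of these data known. Of 21 cholesterol synthesis genes, 16 had a log2 fold change above 0 (49.8% of all genes), with a median of 0.32, and 4 had an unadjusted p under 0.05, all higher (5.3% of all genes). Beside the member Hmgcs1 they included Idi1 (isopentenyl diphosphate isomerase, 0.90) and Msmo1 (a sterol C4 demethylation enzyme, 0.69). Without SAP 2, 14 of the 21 were above 0 (50.2% of all genes) and 1 had an unadjusted p under 0.05 (3.21% of all genes).

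The genes that control SREBP2 did not lean one way. Of 10, including Scap and Insig2, 5 were above 0, the median was -0.04, and Insig1 was the 1 gene with an unadjusted p under 0.05. Stard4, a sterol carrier of the cytosol, was at 128, 116 and 115 CPM in CON and at 98.1, 90.6 and 88.9 CPM in SAP (-0.37 ± 0.17; edgeR, unadjusted p = 0.0651). Of 14 genes of sterol uptake, efflux and esterification, 9 were above 0 with a median of 0.33, and the 3 with an unadjusted p under 0.05 were the members Npc1l1, Abcg5 and Abcg8 (1 without SAP 2). Of 10 liver X receptors and targets, 7 were above 0 with a median of 0.30. The 3 with an unadjusted p under 0.05 were Abcg5, Abcg8 and Nr1h3, which encodes a liver X receptor (0.75 ± 0.31), and without SAP 2 the count was 0. Srebf1, also on this list, was lower in SAP without overlap (-0.55 ± 0.26; edgeR, unadjusted p = 0.0670).

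Fatty acid synthesis genes, which respond chiefly to the related factor SREBP1, leaned the other way. Of 7 tested, 6 were below 0 with a median of -0.55, and 3 had an unadjusted p under 0.05, all lower (5.98% of all genes). Acss2, which makes acetyl-CoA from acetate, stood at 210, 174 and 159 CPM in CON and at 120, 109 and 96.9 CPM in SAP without overlap (-0.74 ± 0.20; edgeR, unadjusted p = 0.00624, adjusted p = 0.397). Acly (ATP citrate lyase, -0.57) and Acaca (acetyl-CoA carboxylase, -0.58) were the other 2. Srebf1 itself was at -0.55 ± 0.26 (edgeR, unadjusted p = 0.0670). Without SAP 2, 3 lower genes again had an unadjusted p under 0.05 (3.53% of all genes). In enterocyte-like nuclei Acaca was at -0.78 and Acss2 at -0.65, with unadjusted p of 0.0201 and 0.0467 by edgeR, the 2 of 7 that were lower with such a p (3.59% of all genes), while no cholesterol synthesis gene had an unadjusted p under 0.05. Without SAP 2 the count of 2 was 1 of 7 (1.99% of all genes).

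**Figure D5:**
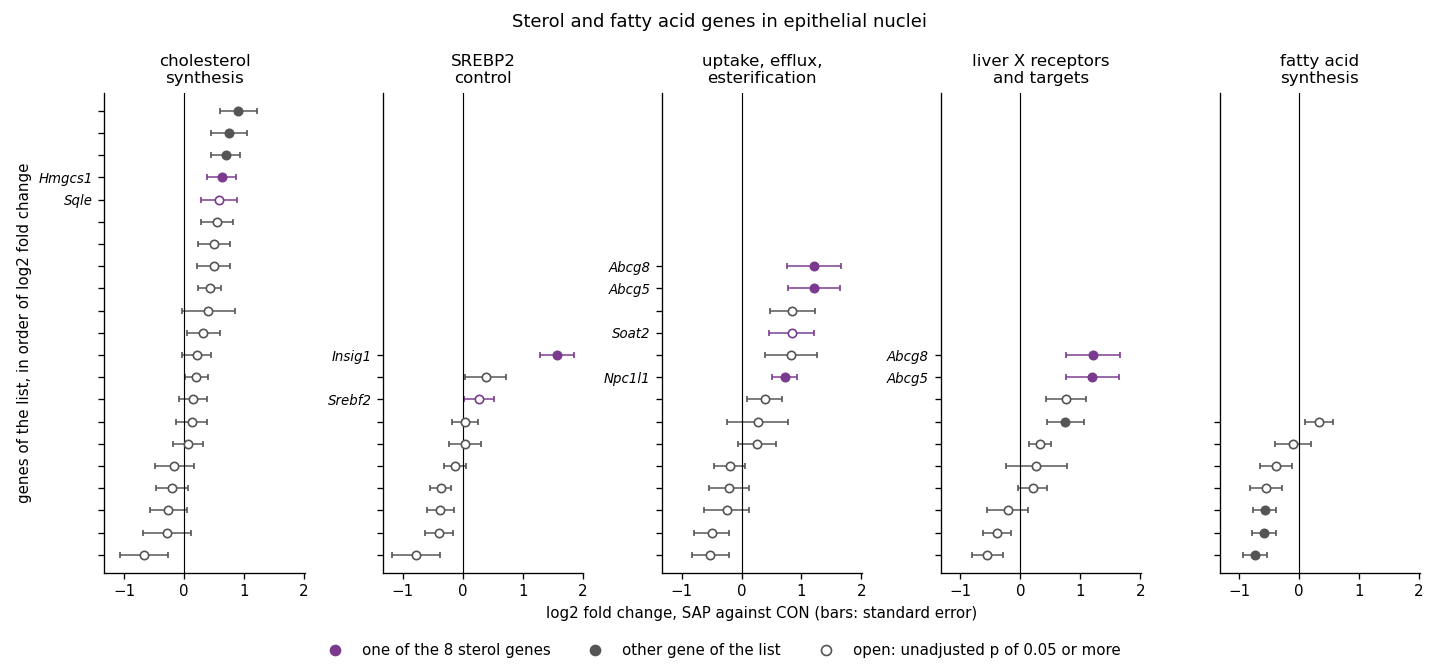
Log2 fold change of SAP against CON with its standard error for each tested gene of the 5 lists in epithelial nuclei, with filled points for an unadjusted p under 0.05 and the 8 sterol genes named and in colour. Most cholesterol synthesis genes lie above 0 (16 of 21) and most fatty acid synthesis genes below it (6 of 7).

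The genes whose levels over 21 classes and clusters were most like those of a member were found among 11673 genes by Pearson's r, given as a description over points that share libraries. For Insig1 they were Sectm1b (r = 0.931), Duoxa2, a maturation factor of the NADPH oxidase DUOX2 (r = 0.927), and Dnpep (r = 0.917). Abcg8 was most like the brush border sodium-proton exchanger Slc9a3 (r = 0.918), the serotonin transporter Slc6a4 (r = 0.906) and Flrt3 (r = 0.901). For Abcg5 the 3 were LOC120100671 (r = 0.902), LOC102555576 (r = 0.901) and the carbonic anhydrase Car13 (r = 0.896). Npc1l1 was most like Gatd1 (r = 0.931), Tm4sf5 (r = 0.931) and the lipid droplet gene Plin3 (r = 0.925). Soat2 was most like Lrrc75a (r = 0.964), Ncstn (r = 0.960) and Slc12a7 (r = 0.946). Hmgcs1 went with Cblc (r = 0.953), Ppp1r14d (r = 0.945) and Ppp6r2 (r = 0.942). Sqle went with Garnl3 (r = 0.899), Fnbp1l (r = 0.897) and Gnb1 (r = 0.883). Srebf2 went with Itfg1 (r = 0.825), Dock5 (r = 0.824) and Nr6a1 (r = 0.813).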

How the data were processed

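The deposited files hold raw UMI counts per gene and nucleus, which the authors made with dnbc4tools. The submitters' processing notes name build mRatBN7.2 and Seurat 4.3.0, and how intronic reads and strand were counted is not given in the sources used here. Intronic and antisense reads in nuclei could therefore enter a gene's count. Following the study's limits, barcodes were kept from 1200 UMIs and 500 genes upward, unless mitochondrial UMIs exceeded 5%. Barcodes were deposited as running cell names, of which 5398 occur in more than 1 library, so true shared barcodes could not be counted. Scrublet marked 0% of nuclei and none were removed.

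Clusters were computed with scanpy 1.11.5 and a Harmony-type integration (2000 variable genes, 30 components, 20 neighbours, Leiden resolution 0.8), with the list genes left out of the clustering, and named from markers. Unnamed clusters were counted as epithelial or not by the closest named cluster. Counts were summed per library and class and fitted over all genes with edgeR 4.0.16 (robust quasi-likelihood test after filterByExpr and TMM scaling) under R 4.3.3, with Benjamini-Hochberg adjustment and DESeq2 1.42.0 as an alternative. The fits were tested on simulated counts with the same spread for every gene and changes only in well-counted genes. The simulation held no shift in class mix and no outlying library, so it does not cover these features. The p-values measure the spread between 3 rats per group. The members and lists were chosen with earlier results of these data known. The text names the 8 members throughout, up to 5 list genes per direction with the smallest p in a comparison, and the 3 genes most like each member. Cluster leading genes are named to identify clusters.

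Pairing by replicate number was checked by correlating, over genes, each library's deviation from its group mean. Same-numbered libraries gave r of 0.617, 0.236 and 0.443 over all nuclei and 0.591, 0.0838 and 0.330 over epithelial nuclei. Differently numbered libraries gave -0.610 to 0.0456 over all nuclei and -0.588 to 0.158 over epithelial nuclei. The highest of these, CON 3 with SAP 2 in epithelial nuclei, lay above the same-numbered CON 2 with SAP 2 (0.0838). No source used here states a pairing. In the fit with the replicate block, Insig1 had a log2 fold change of 1.38 over all nuclei and 1.55 over epithelial nuclei. Libraries of a group differed by more than sampling noise, so each was counted as 1 replicate. Promoter windows came from RefSeq on GRCr8, and no coordinates of the files' build are given. Spatial data and other assays of the study were not used here, and a few list genes enter the counts but are not reported here by name.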

Additional observations from a re-analysis of the deposited data

How the results depend on the processing

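No member was called by edgeR under the other normalizations, the replicate block, a covariate for the pair of shallow libraries, the 1% mitochondrial limit, removal of the highest Scrublet scores or any library left out. DESeq2 called 1 member over all nuclei, 1 over epithelial nuclei and 2 in other classes (both in cluster 1). Without the filter on low counts 4 calls were made in other classes, Insig1 and Abcg5 in cluster 1 and Insig1 in cluster 2 and in goblet-like nuclei. Beside these, that setting called Insig1 in enterocyte-like cluster 6 (adjusted p = 0.0308) and for epithelial minus non-epithelial nuclei (adjusted p = 0.000724), both fits added after the data were seen. Of 128 log2 fold changes over epithelial nuclei (8 members, 16 alternatives), 0 changed sign.

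The number of members with an unadjusted p under 0.05 was less stable. Over all nuclei it was 4, 2 with the replicate block and 1 to 7 with a library left out. Over epithelial nuclei it was 5, 4 with the replicate block, 3 with scaling by library total alone and 1 to 7 with a library left out. In enterocyte-like nuclei it was 1, and 1 to 2 with a library left out. In stem/TA-like nuclei it was 2 (4.68% of all genes higher with such a p) and 0 without integration (2.29%). There it was 4 with DESeq2, 5 without the filter, 5 at Leiden resolution 0.4 and 1 to 7 with a library left out. For DESeq2, no filter, resolution 0.4 and library total alone, the share of all genes is not given here. Those counts therefore cannot be read as a result about the members. The replicate block changed no call.

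Small log2 fold changes turned sign. Without SAP 2, Srebf2 was at -0.08 over all nuclei (-0.08 to 0.42 with a library left out) and -0.12 in stem/TA-like nuclei (-0.12 to 0.27), where it was -0.13 without integration. In enterocyte-like nuclei Sqle was at -0.10 under the 1% mitochondrial limit, -0.22 without CON 2 and -0.03 without CON 3, with a left-out range of -0.22 to 1.10. Abcg5 was at 0.46 at resolution 0.4. Abcg8 was at 0.48 at resolution 0.4, 0.05 under the 1% limit and 0.13 without CON 1 (-0.34 to 0.13). For enterocyte-like minus stem/TA-like nuclei, Hmgcs1 was at 0.03 and Npc1l1 at 0.12 without integration. There, with a library left out, Npc1l1 ran from -0.51 to 0.39 (0.39 without CON 1, 0.03 without CON 3, 0.13 without SAP 2), Sqle from -0.56 to 0.45 (0.45 without CON 1, 0.03 without SAP 2), Soat2 from -0.48 to 0.12 (without CON 1) and Insig1 from -0.04 (without CON 2) to 0.93. The cause was not tested. The fixed class mix has no value without integration, and the difference between classes already has the rat as its block.

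Abcg8, at 58 to 328 UMIs per library, is the member most limited by depth, and SAP 1 is the shallowest library.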

Other observations

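Values outside the comparisons of the report concern classes that were too small or too shallow for a fit of every member. Insig1 was not tested in 2 of the 17 classes and clusters, Abcg5 in 9 and Abcg8 in 11, since the filter on low counts left them out there.

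Several list genes stood apart within single classes. In stem/TA-like nuclei, Msmo1, an enzyme of sterol C4 demethylation, was at 53.0, 48.1 and 47.8 CPM in CON and at 90.0, 82.7 and 76.6 CPM in SAP, without overlap (0.74 ± 0.20 on the log2 scale; edgeR's quasi-likelihood test, unadjusted p = 0.00578, adjusted p = 0.545). Stard4 was lower there, at 152, 158 and 171 CPM in CON and at 107, 101 and 121 CPM in SAP (-0.54 ± 0.18; edgeR, unadjusted p = 0.0159, adjusted p = 0.566). In cluster 1, 8 of 21 cholesterol synthesis genes had an unadjusted p under 0.05, all higher (7.32% of all genes), and 4 of 21 without SAP 2 (3.9% of all genes). Soat1, which like Soat2 encodes an enzyme that esterifies cholesterol, was at 30.7, 26.8 and 36.9 CPM in CON and at 18.8, 20.1 and 12.9 CPM in SAP in that cluster (-0.87 ± 0.33; edgeR, unadjusted p = 0.0254, adjusted p = 0.316). None of these genes was called by edgeR or DESeq2.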
